A study of Mus musculus with 16 samples.

Results

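The MHC class II pathway was followed through 9 genes chosen by name, which are 9 of the 55492 genes counted in left ventricles of the mouse heart. They were the class II chain genes H2-Aa, H2-Ab1 and H2-Eb1, the invariant chain gene Cd74, the peptide editor genes H2-DMa and H2-DMb1, the coactivator gene Ciita, and the costimulatory ligand genes Cd80 and Cd86. All 9 reached the mean of 10 normalized counts that was required for testing, along with 20576 genes in all. RNA came from 16 left ventricles of male C57BL/6 mice aged 8 to 12 weeks. PKM2fl/fl mice carry loxP sites around exon 10 of Pkm and no Cre, and served as controls. PKM2-/- mice carry a germline deletion of that exon in every tissue, made with a CMV-driven Cre that was then bred out, so that loss of PKM2 is not restricted to cardiomyocytes or to leukocytes. For each genotype there were 2 hearts at baseline with no surgery, 3 hearts after sham surgery, and 3 hearts taken 3 days after permanent ligation of the left anterior descending coronary artery (LAD), which causes myocardial infarction (MI). The sham hearts had the same operation without the ligation.

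Class II molecules are pairs of an alpha and a beta chain that carry peptides from internalised proteins to the cell surface, where CD4 T cells read them. The invariant chain CD74 fills the groove of new class II molecules, and H2-DM then exchanges its remnant for peptide. In mice these genes are active mainly in dendritic cells, B cells and macrophages, and their transcription depends on CIITA, which does not bind DNA itself but joins RFX, CREB and NF-Y factors that sit on the X and Y boxes of class II promoters. CD80 and CD86 on the presenting cell bind CD28 and CTLA4 on T cells. In the heart, resident macrophages, dendritic cells and monocytes that enter after infarction are the usual carriers of class II.

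The promoter letters that the partners of CIITA read are shown for the chain and H2-DM genes that the results turn on. Of the 9 genes, 5 were found in the RefSeq promoter table for GRCm38.p6 (H2-Aa, H2-Eb1, H2-DMa, H2-DMb1 and Cd80); H2-Ab1, Cd74, Ciita and Cd86 are named only. Each window below is written 5′ to 3′ on the strand of its gene, with the Y box core TGATTGG in capitals to the right. The capitals to the left are the letters GATGATG of the X box or, in H2-Aa, the cAMP response element TGACGTCA. H2-DMb2, the near copy of H2-DMb1, is set beside it. The windows lie at chr17:34287857-34287909 on the reverse strand (H2-Aa) and on the forward strand at chr17:34305770-34305822 (H2-Eb1), chr17:34153091-34153144 (H2-DMb1) and chr17:34145120-34145173 (H2-DMb2).
H2-Aa: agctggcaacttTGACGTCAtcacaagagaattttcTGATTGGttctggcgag
H2-Eb1: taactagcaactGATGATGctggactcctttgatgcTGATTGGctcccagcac
H2-DMb1: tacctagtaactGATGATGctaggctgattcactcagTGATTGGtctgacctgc
H2-DMb2: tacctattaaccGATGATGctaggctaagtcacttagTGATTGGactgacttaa

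In these windows the motifs did not overlap, 16 to 18 bases separated them, and the Y box began 50 to 92 bases before the annotated start. Over all 32851 promoters of the table, searched on both strands over the 250 bases before the start, TGATTGG was in 7.23%, GATGATG in 2.92% and TGACGTCA in 1.55%, and GATGATG together with TGATTGG was in 0.201%, which is 66 promoters. The X box letters were set after the sequences had been seen. Neither of the 2 annotated H2-DMa promoters nor the Cd80 promoter held any of these letters in the window searched.

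H2-Aa, H2-Ab1, H2-Eb1, H2-DMa and H2-DMb1 lie within the class II region of chromosome 17 (GRCm38), at 34282744 to 34287823, 34263227 to 34269418, 34305867 to 34316674, 34119693 to 34139101 and 34153191 to 34160229. Cd74 lies on chromosome 18, and Ciita, Cd80 and Cd86 lie on chromosome 16 at 10480014 to 10531064, 38457430 to 38495958 and 36568956 to 36666158. Reads were counted over the exons of each gene as a whole, so isoforms were not told apart. H2-DMb1 and H2-DMb2 transcripts were 94.3% identical over 1129 aligned bases and shared 27.2% of the 50-base windows of H2-DMb1, so how their reads were split is uncertain.

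The libraries held 20623769 to 71855101 reads on genes, and 16.4% to 48.1% of these fell on 9 rRNA-related loci. This share was 17.7% and 22.6% in PKM2fl/fl and 44.9% and 40.7% in PKM2-/- hearts at baseline. After sham surgery it was 23.4%, 16.4% and 28.4% in PKM2fl/fl and 29.4%, 30.0% and 47.5% in PKM2-/- hearts. After MI it was 48.1%, 20.5% and 47.8% in PKM2fl/fl and 16.5%, 32.7% and 36.2% in PKM2-/- hearts. Values are normalized counts, meaning reads per gene divided by the size factor of the library. Cardiomyocyte markers were abundant in every heart, with Myh6 at 46178 or more, but were lower after MI. The summed level of 6 such markers was 723097 to 847015 after sham surgery and 132128 to 328430 after MI in PKM2fl/fl hearts. In PKM2-/- hearts it was 642097 to 787017 and 146232 to 209831. Their median log2 fold change from sham surgery to MI was -1.94 and -2.09. The part of this fall in the MI comparisons below was not tested. Pkm, counted as a whole gene with both isoforms, had 7779 to 12076 normalized counts in PKM2fl/fl and 10120 to 16113 in PKM2-/- hearts, and whole-gene counts do not check the loss of exon 10. The heart sham 2 of PKM2fl/fl and the heart sham 1 of PKM2-/- stood apart from the other hearts of their groups in the class II genes, and the comparisons of MI and of genotype that use them are also given without them.

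Per kilobase of the canonical transcript, the mean level over the 16 hearts was 1427 for Cd74, 767 for H2-Aa, 542 for H2-Ab1, 388 for H2-Eb1, 316 for H2-DMa, 142 for Cd80, 84.3 for Cd86, 54.4 for H2-DMb1 and 37.4 for Ciita. In 16 of 16 hearts Cd74 was above H2-Aa, H2-Aa above H2-Ab1, and H2-Ab1 above H2-Eb1. H2-Eb1 and H2-DMa did not keep an order, since H2-Eb1 was the higher in 9 hearts and H2-DMa in 7. Cd86 was above H2-DMb1 in 15 hearts, and H2-DMb1 above Ciita in 13. The highest heart had 6.35 times the lowest for H2-DMb1, 4.99 times for H2-Ab1, 4.57 times for H2-Aa and 4.53 times for Cd74, while H2-DMa stayed between 296 and 460.5 normalized counts. H2-Ea, whose product is missing in C57BL/6 mice, had 2 reads in 1 heart and 0 in the other 15.

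**Figure D1:**
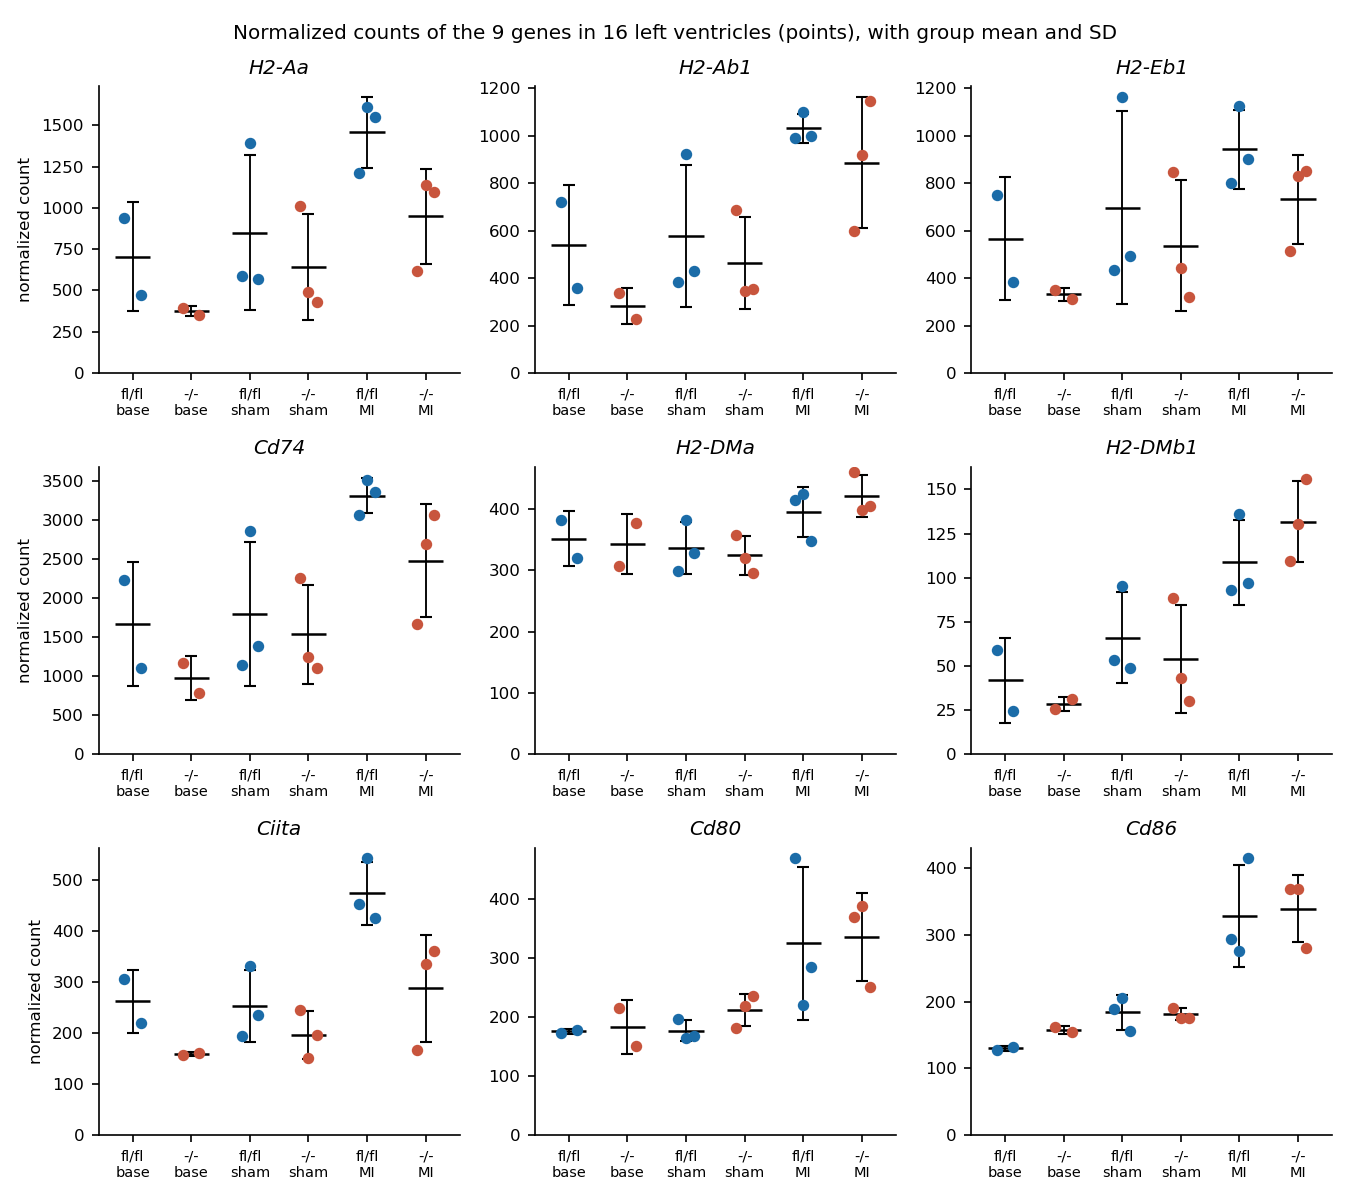
Normalized counts of the 9 genes (y axis, linear, from 0) in each of the 16 left ventricles (points, blue for PKM2fl/fl and red for PKM2-/-), by genotype and treatment, with the group mean and SD in black. H2-Aa, H2-Ab1, H2-Eb1 and Cd74 show the same high points in sham 2 of PKM2fl/fl and sham 1 of PKM2-/-, while Cd80 and Cd86 do not.

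To see how infarction bears on class II genes, MI was compared with sham surgery in each genotype. After MI all 9 genes were higher on average in both genotypes. In PKM2fl/fl hearts 5 of 9 rose with an adjusted p under 0.05 (Cd86, Ciita, Cd80, Cd74 and H2-Ab1), against 24.8% of all 20576 genes that rose by this rule. In PKM2-/- hearts 5 of 9 rose (Cd86, H2-DMb1, H2-DMa, H2-Ab1 and Cd80), against 28.7% of all genes. These counts rested on single hearts and on the tool. In PKM2fl/fl hearts DESeq2 passed 3 of 9 (Ciita, Cd80 and Cd86) and edgeR 4. H2-Ab1 was lost by both, at an adjusted p of 0.122 and 0.0552. With limma-voom 7 of 9 passed there, H2-Ab1 among them. With 1 heart left out the count was 2 without sham 1 (Cd80 and Cd86), 3 without sham 3 or without any 1 of the MI hearts, and 7 without sham 2. The PKM2-/- count was 4 with DESeq2, where H2-Ab1 had an adjusted p of 0.0710. It was 2 without sham 2 (H2-DMb1 and Cd86), 3 without sham 3 or MI 2, 4 without MI 3, 5 without MI 1 and 6 without sham 1. Cd86 passed in both genotypes with each heart left out. A 2-fold rise as well was reached by 0 of 9 in PKM2fl/fl and 1 of 9 in PKM2-/- hearts (H2-DMb1), against 12.4% and 14.5% of all genes. For 9 genes, counts of 0 and 1 are near those shares. In PKM2fl/fl hearts edgeR and DESeq2 on the recovered reads also gave 0 of 9, limma-voom gave 1 (H2-Ab1), and 6 of 9 had an unadjusted p under 0.05 by limma-trend, against 55.8% of all genes. Their median log2 fold change was 0.82 in PKM2fl/fl and 0.65 in PKM2-/- hearts, where the median over all genes tested was -0.0025 and 0.010. Tests here and below are those of limma-trend, fitted to all 16 hearts after 1 was added to each normalized count and the log2 was taken, with Benjamini-Hochberg adjustment over all genes tested, and log2 fold changes are on that scale.

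H2-Ab1, the beta chain of the I-A molecule, had 382, 923 and 431 normalized counts in PKM2fl/fl hearts after sham surgery and 991, 1099 and 999.6 after MI. It had 688, 347 and 353 in the sham hearts of PKM2-/- mice and 597, 918 and 1144 in their infarcted hearts. Every infarcted PKM2fl/fl heart was above every sham heart of that genotype, while in PKM2-/- hearts MI 1 lay below sham 1. The log2 fold change was 0.94 in PKM2fl/fl (standard error 0.35, limma adjusted p = 0.0365) and 0.96 in PKM2-/- hearts (standard error 0.35, limma adjusted p = 0.0297).

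H2-Aa, the alpha chain of I-A, had 588, 1391 and 569.6 normalized counts in PKM2fl/fl hearts after sham surgery and 1212, 1608 and 1549 after MI. The PKM2-/- sham hearts had 1009.6, 488 and 428, and the infarcted ones 615, 1136 and 1094. Its groups overlapped in both genotypes, and with log2 fold changes of 0.90 and 0.62 it did not pass the test in either (limma adjusted p = 0.0574 and 0.173). H2-Eb1, the beta chain of I-E, had 435, 1165 and 492 normalized counts in PKM2fl/fl hearts after sham surgery and 802, 1126 and 903 after MI. In PKM2-/- hearts it had 849, 441 and 323 after sham surgery and 516, 832 and 851 after MI. Sham 2 of PKM2fl/fl was the highest H2-Eb1 value of all 16 hearts, above every infarcted heart, and the log2 fold changes of 0.57 and 0.53 did not pass the test (limma adjusted p = 0.229 and 0.250).

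Cd74, which encodes the invariant chain, had 1142, 2859.8 and 1391 normalized counts in PKM2fl/fl hearts after sham surgery and 3070.0, 3517 and 3356 after MI, a mean of 1798 ± 928 against 3314 ± 226 (SD, n = 3). All 3 infarcted hearts were above all 3 sham hearts, and the log2 fold change of 0.998 fell just short of 2-fold (limma adjusted p = 0.0279). Cd74 had 2260.3, 1239 and 1106 in the sham hearts of PKM2-/- mice and 1671, 2699.8 and 3073 in their infarcted hearts. There MI 1 lay below sham 1, and the log2 fold change of 0.72 did not pass the test (limma adjusted p = 0.0948).

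H2-DM, the peptide editor, is a pair of the H2-DMa and H2-DMb1 chains. H2-DMa had 298, 382 and 328 normalized counts in PKM2fl/fl hearts after sham surgery and 414, 424 and 348 after MI, and in PKM2-/- hearts 359, 320.0 and 296 after sham surgery and 460.5, 399 and 405 after MI. It rose by a log2 fold change of 0.38 in PKM2-/- hearts, without overlap (limma adjusted p = 0.0260), and its 0.24 in PKM2fl/fl hearts, with overlap, did not pass the test (limma adjusted p = 0.158). H2-DMb1 had 53.5, 95.5 and 49.0 normalized counts in PKM2fl/fl hearts after sham surgery and 92.7, 136 and 96.9 after MI. The PKM2-/- sham hearts had 88.4, 43.1 and 30.2, and the infarcted ones 109, 130.2 and 156, with every infarcted heart above every sham heart. It was 2.64-fold higher after MI in PKM2-/- hearts (log2 fold change 1.40, 95% interval 0.58 to 2.23, limma adjusted p = 0.00594) and 1.69-fold in PKM2fl/fl hearts (95% interval -0.07 to 1.58 on the log2 scale, limma adjusted p = 0.119). H2-DMb2 had at most 44.8 normalized counts in any heart, and its log2 fold changes were 1.14 in PKM2fl/fl and 1.98 in PKM2-/- hearts, of which the latter passed the test (limma adjusted p = 0.125 and 0.00999).

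Ciita had 193, 332 and 235 normalized counts in PKM2fl/fl hearts after sham surgery and 453, 543 and 425 after MI. The groups did not overlap, and the log2 fold change was 0.93 (standard error 0.27, limma adjusted p = 0.01005). In PKM2-/- hearts it had 244, 150.2 and 195 after sham surgery and 167, 335 and 361 after MI. MI 1 of PKM2-/- was within the sham range and was also the lowest of its group for H2-Aa, H2-Ab1, H2-Eb1 and Cd74, and the log2 fold change of 0.50 did not pass the test (limma adjusted p = 0.134).

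Cd86 had 189.8, 206 and 156 normalized counts in PKM2fl/fl hearts after sham surgery and 294, 276 and 416 after MI. It had 191, 176 and 176 in the sham hearts of PKM2-/- mice and 369, 369 and 281 in their infarcted hearts. The groups did not overlap in either genotype, and Cd86 had the smallest p of the 9 genes in both, with log2 fold changes of 0.82 and 0.89 (limma adjusted p = 7.60e-04 and 2.91e-04). Cd80 had 197, 165 and 168 normalized counts in PKM2fl/fl hearts after sham surgery and 469.9, 221 and 284 after MI, and in PKM2-/- hearts 182, 219 and 235 after sham surgery and 369.7, 389 and 251 after MI. It too rose without overlap in both genotypes, by 0.81 and 0.65 on the log2 scale (limma adjusted p = 0.0112 and 0.0319). Among all genes tested, 30% of those in PKM2fl/fl and 31.7% of those in PKM2-/- hearts had all infarcted hearts above all sham hearts; of the 9 genes these were 5 and 4.

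**Figure D2:**
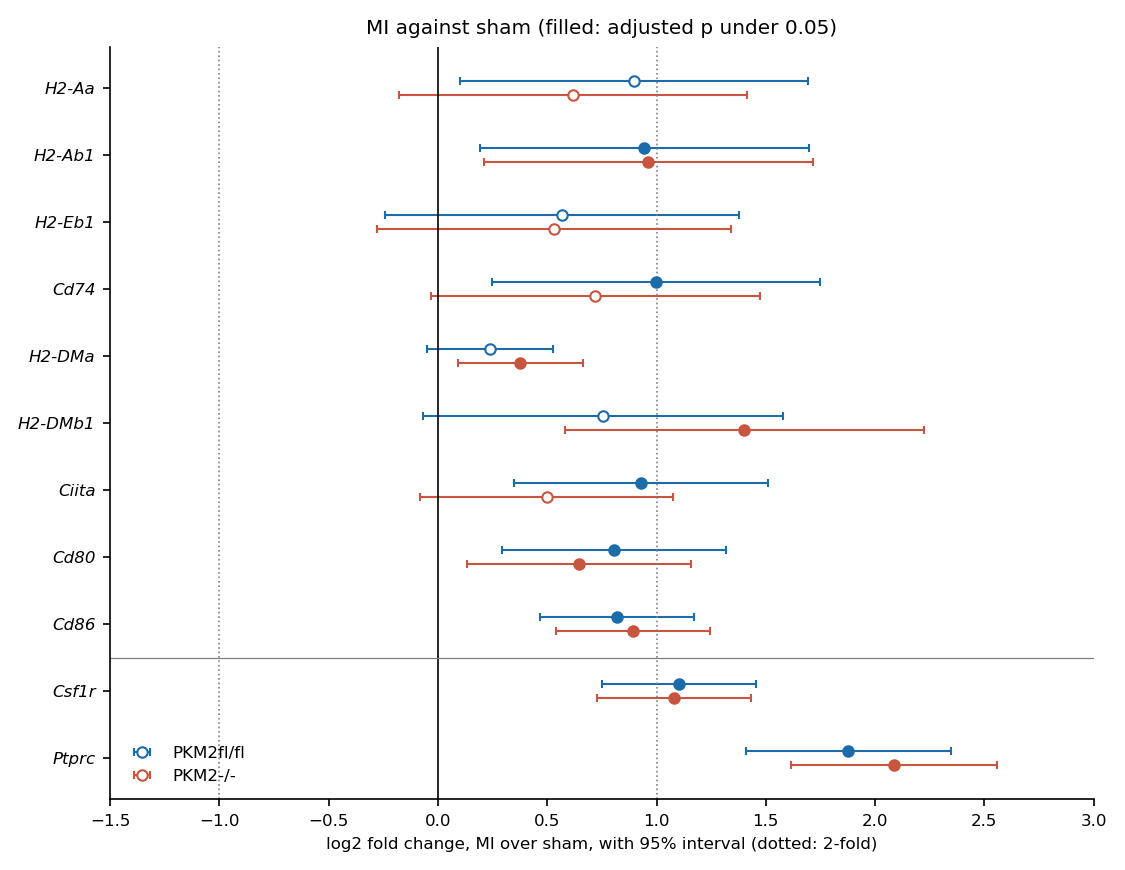
Log2 fold change of MI over sham (x axis) with its 95% interval for the 9 genes and, under the line, for Csf1r (macrophages) and Ptprc (all leukocytes), in PKM2fl/fl (blue) and PKM2-/- hearts (red). Filled points have an adjusted p under 0.05 and dotted lines mark a 2-fold change; the 9 genes lie between 0.24 and 1.40, and Ptprc at 1.88 and 2.09.

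Counts of genes past 2-fold depended on single hearts. Without sham 2 of PKM2fl/fl, 5 of the 9 genes passed both thresholds in that genotype, with log2 fold changes of 1.39 for Cd74, 1.34 for H2-Ab1, 1.32 for H2-Aa, 1.14 for Ciita and 1.01 for H2-Eb1. Without any 1 of the 3 PKM2fl/fl MI hearts, 1 gene did. Without sham 1 of PKM2-/- 3 did (H2-DMb1, H2-Ab1 and Cd74), and 2 did without its MI 1 or MI 3. Scaling each library to its total reads, under which the median log2 fold change of all genes was -0.177 in PKM2fl/fl and 0.516 in PKM2-/- hearts, left all 9 genes higher after MI but passed 0 of 9 on adjusted p in PKM2fl/fl and 9 of 9 in PKM2-/- hearts. The part of the rRNA-related share in these values was not tested.

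Leukocytes were followed by Ptprc and macrophages by Csf1r. In whole-ventricle RNA, fewer cells of a type and less RNA per cell cannot be told apart. Ptprc, which encodes the leukocyte antigen CD45, had 931, 1245 and 598 normalized counts in PKM2fl/fl hearts after sham surgery and 2803, 2969 and 4137 after MI. The PKM2-/- sham hearts had 900.3, 914 and 735, and the infarcted ones 3020.5, 3938 and 3914. Its log2 fold changes of 1.88 and 2.09 were larger than those of each of the 9 genes in the same genotype. Csf1r, the macrophage growth factor receptor gene, had log2 fold changes of 1.10 and 1.08.

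Class II counts were therefore set against Ptprc and Csf1r within each heart, a comparison that does not depend on size factors and was chosen after the values had been seen. H2-Ab1 per Ptprc was 0.411, 0.741 and 0.722 in PKM2fl/fl hearts after sham surgery and 0.354, 0.370 and 0.242 after MI. In PKM2-/- hearts it was 0.764, 0.380 and 0.480 after sham surgery and 0.198, 0.233 and 0.292 after MI. Every infarcted heart was below every sham heart of its genotype, at a mean of 0.322 against 0.625 in PKM2fl/fl and 0.241 against 0.541 in PKM2-/- hearts (exact permutation test, two-sided, p = 0.1 in each, the smallest p that 3 hearts against 3 allow). Cd74, Ciita and Cd86 per Ptprc were likewise lower in every infarcted heart in both genotypes, at 1.84-fold, 1.93-fold and 2.08-fold lower in PKM2fl/fl and 2.58-fold, 3.01-fold and 2.28-fold lower in PKM2-/- hearts. Cd80 per Ptprc overlapped between groups in PKM2fl/fl hearts and did not in PKM2-/- hearts. Set against Csf1r, which rose less than Ptprc, H2-Ab1 and Cd74 overlapped between sham and MI in both genotypes, with means of 0.394 and 0.347 for H2-Ab1 per Csf1r in PKM2fl/fl and 0.292 and 0.266 in PKM2-/- hearts (exact permutation test, two-sided, p = 0.6 and 0.8). Csf1r is 1 of 7 macrophage markers listed below, whose median log2 fold changes were 1.10 and 1.22. Cd68 rose most, from 134 to 216 normalized counts after sham surgery to 1289 to 1759 after MI in PKM2fl/fl hearts. In PKM2-/- hearts Cd68 went from 180 to 340 up to 1521 to 2016. No ratio to Cd68 was taken, so the overlap holds for Csf1r and not for macrophage markers in general.

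The proportion of class II chain genes was compared in the same way. H2-Eb1 per H2-Ab1 was 1.14, 1.26 and 1.14 in PKM2fl/fl hearts after sham surgery and 0.810, 1.02 and 0.903 after MI. In PKM2-/- hearts it was 1.23, 1.27 and 0.914 after sham surgery and 0.864, 0.907 and 0.744 after MI. The infarcted hearts were lower than the sham hearts in both genotypes, 1.30-fold and 1.35-fold (exact permutation test, two-sided, p = 0.1 in each, the smallest the design allows), although in PKM2-/- hearts sham 3 was only just above MI 2. H2-Aa per H2-Ab1 overlapped between the groups in both.

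**Figure D3:**
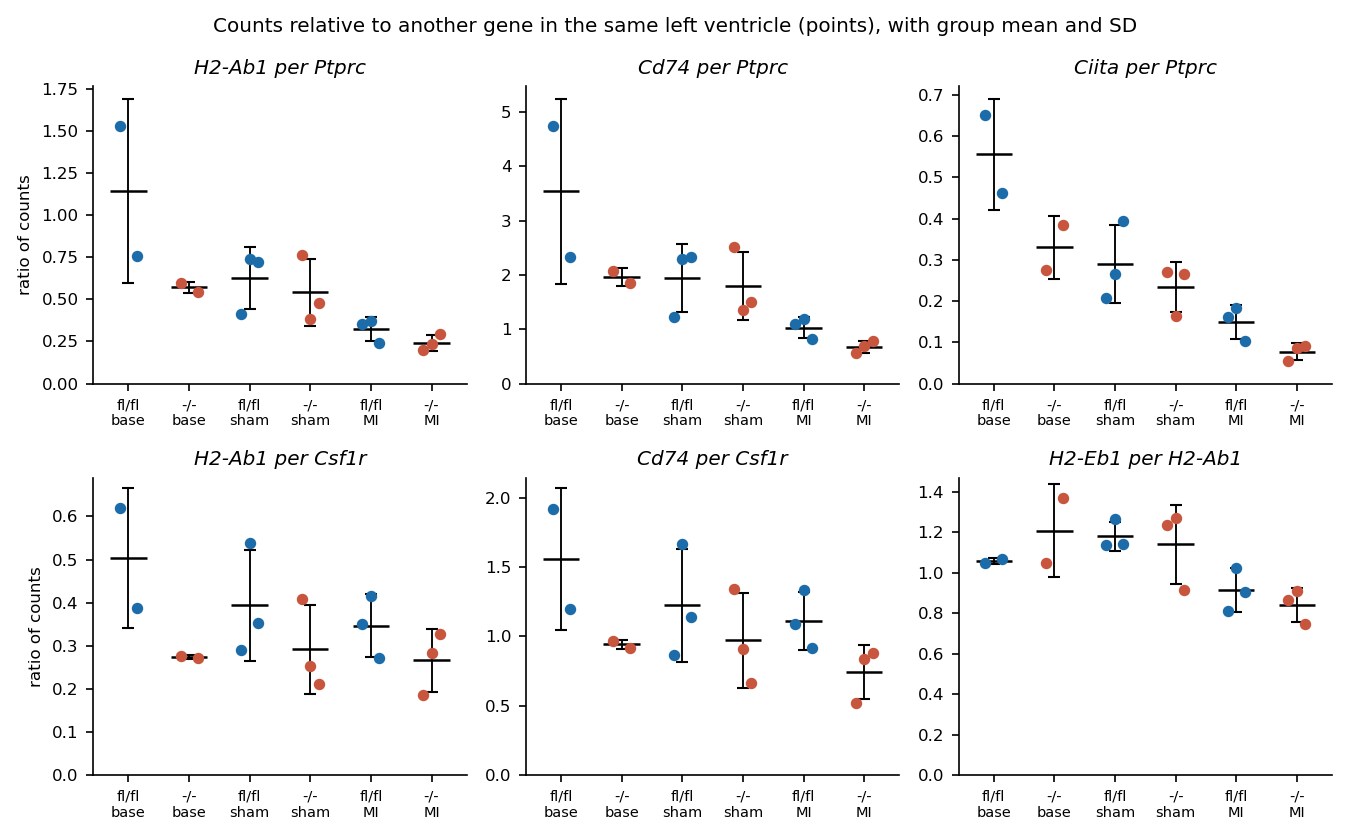
Ratio of the counts of 2 genes in the same heart (y axis, linear, from 0) for each of the 16 left ventricles (points, blue for PKM2fl/fl and red for PKM2-/-), with the group mean and SD in black. H2-Ab1, Cd74 and Ciita per Ptprc lie lower in every infarcted heart than in every sham heart of the same genotype, H2-Ab1 and Cd74 per Csf1r overlap, and H2-Eb1 per H2-Ab1 is lower after MI.

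Marker lists of the cells that can carry class II moved in different directions after MI. The summed level of 3 leukocyte markers was 1315 to 2358 after sham surgery and 5593 to 7585 after MI in PKM2fl/fl hearts, and 1626 to 2088 and 7348 to 7842 in PKM2-/- hearts, and all 3 were called higher in both genotypes. A gene was called where its adjusted p was under 0.05 and it had changed 2-fold or more. Of 7 macrophage markers, 4 in PKM2fl/fl and 5 in PKM2-/- hearts were called higher, led by Cd68 with log2 fold changes of 3.09 and 2.78, and their summed level went from 5758 to 8810 up to 15125 to 18812 in PKM2fl/fl and from 7759 to 9408 up to 19505 to 22769 in PKM2-/- hearts. All 5 markers of recruited monocytes were called higher in both genotypes, and Ccr2 had log2 fold changes of 3.30 and 3.87. Of 5 resident macrophage markers 0 were called higher and 1 was called lower, Timd4 in PKM2-/- hearts, where 14.3% of all genes were called lower (11.1% in PKM2fl/fl hearts). On average 2 of the 5 were higher and 3 lower in PKM2fl/fl hearts, and all 5 were lower in PKM2-/- hearts. Lyve1 fell by 0.61 and 0.53 on the log2 scale. The summed level of the 5 was 2090 to 2787 after sham surgery and 1588 to 2338 after MI in PKM2fl/fl hearts. In PKM2-/- hearts it was 2817 to 3574 and 2456 to 2792. At baseline the sum was 1446 to 1486 in PKM2fl/fl and 1528 to 1831 in PKM2-/- hearts. The infarcted hearts were thus below sham hearts on average but above baseline hearts in this sum. Timd4 went the other way, lower in every infarcted heart than at baseline in both genotypes, and Lyve1 overlapped with baseline in PKM2fl/fl hearts. MI was not tested against baseline.

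Dendritic cell markers were mixed. Of 8, 7 were tested, and 4 in PKM2fl/fl and 3 in PKM2-/- hearts were called higher, among them Flt3, the receptor that dendritic cells need to develop, at 2.01 and 2.12 on the log2 scale. Flt3 had 21.7, 41.1 and 9.80 normalized counts in PKM2fl/fl hearts after sham surgery and 66.5, 87.9 and 111 after MI. Zbtb46, which marks classical dendritic cells and is also known from endothelium, fell by 0.41 and 1.18 on the log2 scale, and made up most of the summed level of that list, 1684 to 1851 after sham surgery and 1720 to 1955 after MI in PKM2fl/fl hearts and 1915 to 2314 and 1407 to 1606 in PKM2-/- hearts. Of 6 B cell markers 3 were called higher in each genotype, at low levels: Ms4a1 had at most 32.1 and Cd79a at most 33.2 normalized counts in any heart. The summed B cell markers were 160.4 to 232 after sham surgery and 322 to 377 after MI in PKM2fl/fl hearts. In PKM2-/- hearts they were 145 to 209 and 185 to 883. The 883 was that of MI 3, where Ighm had 669 normalized counts, against 62.4 in MI 1 and 112 in MI 2. At baseline the sums were 269 to 299 in PKM2fl/fl and 211 to 294 in PKM2-/- hearts, above those after sham surgery. Of 5 T cell markers 2 were tested and 0 called, and Cd3e, Cd3d and Cd3g had at most 12 reads in any heart. The part of these cells in the class II values was not tested.

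In sham 2 of PKM2fl/fl, where class II genes were high, Flt3 was at 41.1 normalized counts against 21.7 and 9.80 in the other sham hearts of that genotype, and Ptprc and Csf1r were also the highest of that group. In sham 1 of PKM2-/-, Flt3 was not the highest of its group and Ptprc, at 900.3, lay between those of the other two sham hearts, while Csf1r was the highest of its group, at 1683 against 1367 and 1665.

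Other genes of the pathway were taken from lists chosen by function. Of 12 genes of class II processing and turnover, 6 in PKM2fl/fl and 7 in PKM2-/- hearts were called higher and 0 lower, with a median log2 fold change of 0.94 and 1.32. They included the proteases that trim the invariant chain, Lgmn (2.02 and 2.03), Ctss (2.77 and 2.68) and Ctsb (1.53 and 1.65). Marchf1, the ubiquitin ligase that removes class II and CD86 from the surface, was higher by 1.45 and 1.94. Ctss, the protease that makes the last cut of the invariant chain, had 707, 1018 and 565 normalized counts in PKM2fl/fl hearts after sham surgery and 4769, 4851 and 5630.0 after MI.

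Of 18 genes of class II transcription and its inducers, 16 were tested, and 3 were called higher in each genotype. These were Spi1 (1.72 and 1.99 on the log2 scale) and Irf8 (1.46 and 1.62), which encode myeloid transcription factors, and Prdm1 (1.33 and 1.58), which encodes a repressor of Ciita in plasma cells. The 1 gene called lower, in PKM2-/- hearts, was Nfyc, which encodes a subunit of the Y box factor NF-Y and is named after its value was seen; its log2 fold change was -1.43 there and -0.92 in PKM2fl/fl hearts. Jak2, a kinase of the interferon-gamma receptor, passed the test at 0.91 and 0.87, under 2-fold. Ifngr2, of the same receptor and also named after its values were seen, was lower after MI. It had 3390 to 3835 normalized counts after sham surgery and 2230 to 2708 after MI in PKM2fl/fl hearts. In PKM2-/- hearts it had 3006 to 4369 and 2060 to 2301. On adjusted p alone 5 of the 16 passed higher and 2 lower in PKM2fl/fl hearts (5097 and 5202 of all 20576 genes). In PKM2-/- hearts these were 6 and 3 (5899 and 5780). Ifng, the inducer of Ciita in most cells, had 0 reads in all 16 hearts, which allows up to 3 reads in a library, by counting error only. The median of the list was 0.14 and 0.083.

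Costimulatory genes outside the 9 moved both ways. Of 12, 8 were tested, with 1 called higher and 1 lower in PKM2fl/fl and 2 higher and 2 lower in PKM2-/- hearts, and medians of 0.26 and 0.096. Cd276, a B7 family ligand, was higher by 2.80 and 2.77 on the log2 scale. Ctla4, the inhibitory receptor for CD80 and CD86, had log2 fold changes of -1.54 and -3.25. These rest on few reads, 20, 19 and 8 in PKM2fl/fl and 7, 8 and 2 in PKM2-/- hearts after MI. Cd40, which activates presenting cells, passed the test at 0.99 and 0.70. Of 12 genes of the MHC class I pathway, 0 in PKM2fl/fl and 1 in PKM2-/- hearts were called, the chaperone gene Calr (1.03), and B2m, the class I light chain, was at 0.62 (limma adjusted p = 0.0239) and 0.32 (limma adjusted p = 0.215). Of 5 other class II genes 2 were tested. H2-Ob, a chain of the H2-DM inhibitor H2-O, was called in PKM2fl/fl hearts at 1.27, with 15.3, 20.5 and 18.6 normalized counts after sham surgery and 40.2, 51.4 and 43.9 after MI, and passed the test below 2-fold in PKM2-/- hearts at 0.74.

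To ask whether PKM2 bears on these genes, PKM2-/- hearts were compared with PKM2fl/fl hearts under each treatment. In all 3 comparisons 0 of 9 genes passed limma's test, and 0 of 9 passed with edgeR, DESeq2 or limma-voom on the recovered reads. By the same rule 0.00972% of all genes passed at baseline, 0.00972% after sham surgery and 0.967% after MI. At an unadjusted p under 0.05 there were 0, 0 and 1 of the 9 genes, against 3.64%, 9.95% and 17% of all genes. The log2 fold changes of H2-Aa, H2-Ab1, H2-Eb1, Cd74 and Ciita were below 0 under all 3 treatments, with intervals that reach 0 for all but Ciita after MI. After sham surgery that direction rested on sham 2 of PKM2fl/fl: H2-Aa was at -0.38, H2-Ab1 at -0.28, H2-Eb1 at -0.35 and Cd74 at -0.18, and without that heart they were at 0.042, 0.11, 0.096 and 0.21. Without sham 1 of PKM2-/- they were at -0.76, -0.61, -0.74 and -0.50, and 0 of 9 genes passed with either heart left out. Median log2 fold changes of the 9 genes after sham surgery were -0.28 with all hearts and 0.073 without sham 2 of PKM2fl/fl.

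At baseline H2-Ab1 had 718 and 359 normalized counts in PKM2fl/fl and 336 and 229 in PKM2-/- hearts, and Cd74 had 2228 and 1108 and 1172 and 777. H2-Aa had 937 and 472 against 395 and 352, and H2-Eb1 750.4 and 383 against 351 and 313. The PKM2fl/fl hearts differed from one another about as much as the genotypes did, baseline 1 being the higher for each of these genes. The log2 fold changes were -0.87 for H2-Ab1 (95% interval -1.79 to 0.05), -0.83 for H2-Aa, -0.69 for H2-Eb1 and -0.72 for Cd74 (limma adjusted p = 1.0 for each). The genotypes did not overlap for H2-Aa, H2-Ab1, H2-Eb1 and Ciita, which were lower without PKM2, or for Cd86, which was higher, while 17.2% of all genes had such a separation downwards and 17.7% upwards.

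Ciita had 305 and 219 normalized counts in PKM2fl/fl and 156 and 161 in PKM2-/- hearts at baseline, a log2 fold change of -0.70 (95% interval -1.41 to 0.01, unadjusted p = 0.0528 from limma). After sham surgery the genotypes overlapped and the log2 fold change was -0.36 (95% interval -0.94 to 0.22), and -0.14 without sham 2 of PKM2fl/fl. After MI every PKM2-/- heart was below every PKM2fl/fl heart, with 288 ± 105 against 474 ± 61.7 normalized counts (SD, n = 3). That log2 fold change was -0.79 (95% interval -1.37 to -0.21, unadjusted p = 0.0110 from limma), which did not pass after adjustment over all genes (limma adjusted p = 0.157). Under total count scaling it was -0.42, where the median of all genes was 0.360. H2-Aa was the other gene of the 9 without overlap after MI, at -0.66 (limma adjusted p = 0.388), and of all genes 8.26% separated downwards and 10.7% upwards. H2-Ab1 was at -0.27, H2-Eb1 at -0.39 and Cd74 at -0.46 after MI, all with overlap. The difference of H2-Ab1 turned positive under total count scaling, at 0.10.

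For Cd80, Cd86, H2-DMa and H2-DMb1 the intervals give the sizes of a difference between genotypes that these hearts do not tell apart from 0. After MI the 95% interval on the log2 scale was -0.42 to 0.61 for Cd80, -0.29 to 0.41 for Cd86, -0.19 to 0.38 for H2-DMa and -0.54 to 1.11 for H2-DMb1.

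**Figure D4:**
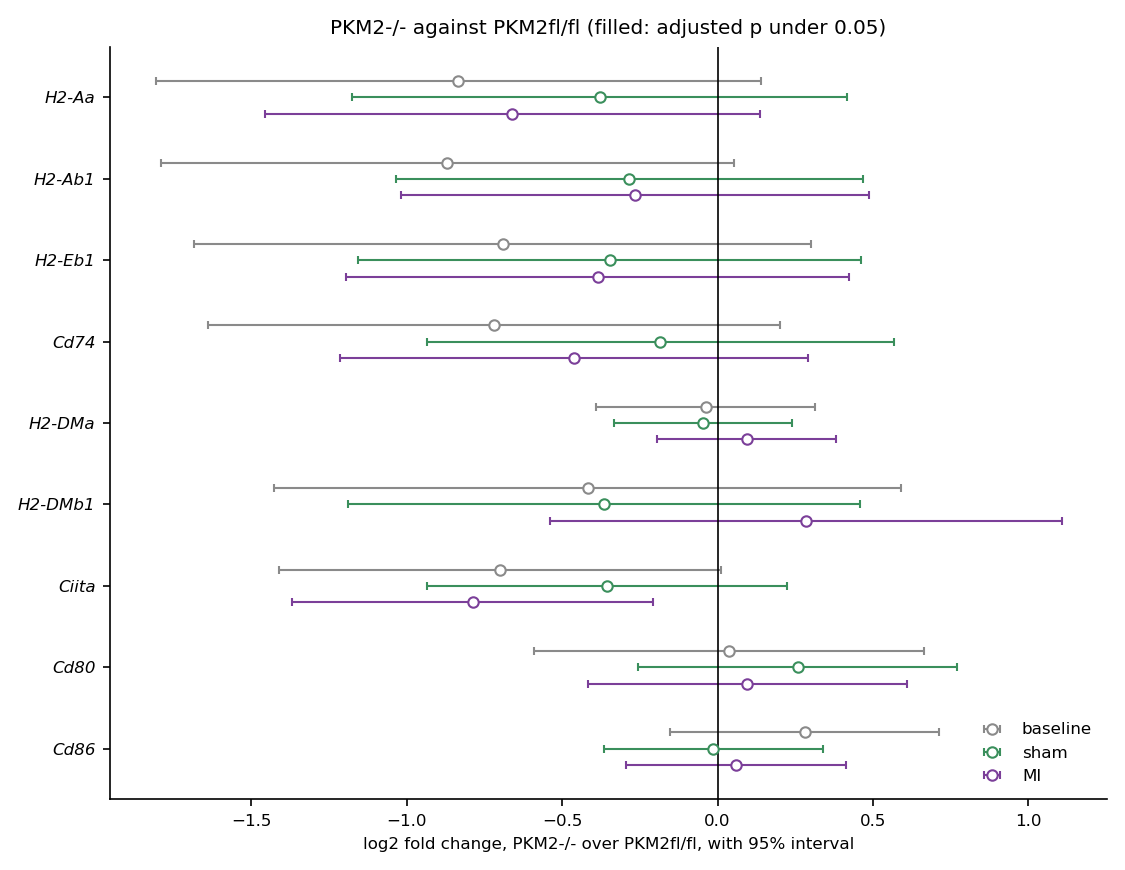
Log2 fold change of PKM2-/- over PKM2fl/fl hearts (x axis) with its 95% interval for the 9 genes at baseline (grey), after sham surgery (green) and after MI (purple). All points are open, since none had an adjusted p under 0.05; Ciita after MI, at -0.79, is the point whose interval does not reach 0.

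Whether MI acted differently in the genotypes was tested by the interaction term, which compares the change from sham to MI in PKM2-/- with that in PKM2fl/fl hearts. By limma 0 of 9 genes passed, as did 0% of all genes, and edgeR, DESeq2 and limma-voom passed 0 of the 9 as well. At an unadjusted p under 0.05 there were 0 of 9 against 8.28% of all genes. For Ciita, which passed the test of MI against sham in PKM2fl/fl hearts and not in PKM2-/- hearts, the difference of the changes was -0.43 (95% interval -1.25 to 0.39, limma adjusted p = 0.787), and 0.25 under total count scaling. For H2-DMb1, which passed in PKM2-/- hearts and not in PKM2fl/fl hearts, it was 0.65 (95% interval -0.52 to 1.81, limma adjusted p = 0.773). Without sham 2 of PKM2fl/fl these differences were -0.65 for Ciita and 0.35 for H2-DMb1, and without sham 1 of PKM2-/- they were -0.26 and 1.07, with 0 of 9 genes passing in each case. The median over the 9 genes was -0.038 with all hearts and -0.38 without sham 2 of PKM2fl/fl. Both intervals include 0 and also differences as large as the change with MI itself.

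Sham surgery alone was compared with baseline. In neither genotype did any of the 9 genes pass limma's test, by which 0.19% of all genes passed in PKM2fl/fl and 5.14% in PKM2-/- hearts, and edgeR, DESeq2 and limma-voom passed 0 of the 9 too. At an unadjusted p under 0.05 there were 1 of 9 in PKM2fl/fl, against 8.81% of all genes, and 0 of 9 in PKM2-/- hearts, against 18.9%. The 1 gene was Cd86, with 127 and 133 normalized counts at baseline and 189.8, 206 and 156 after sham surgery, every sham heart above both baseline hearts (log2 fold change 0.49, limma adjusted p = 0.393). The largest difference in PKM2-/- hearts was that of H2-DMb1, 0.77 with an interval of -0.16 to 1.69, and 0.34 without sham 1. These comparisons share their sham hearts with those of MI, and sham 2 of PKM2fl/fl and sham 1 of PKM2-/- are among them.

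Within groups, hearts that were high for 1 of H2-Aa, H2-Ab1, H2-Eb1 and Cd74 were high for the others of these genes. After the group mean was taken off the log2 levels, H2-Ab1 and Cd74 had a Pearson r of 0.993 over the 16 hearts and H2-Aa and H2-Eb1 of 0.981. Against the mean of H2-Aa, H2-Ab1, H2-Eb1 and Cd74, the r was 0.892 for H2-DMb1, 0.828 for Ciita, 0.463 for H2-DMa, 0.120 for Cd86 and -0.358 for Cd80. Values of one heart share its library and size factor. Among the genes whose promoters were searched, H2-Aa, H2-Eb1 and H2-DMb1 held the X or Y box letters shown above. H2-DMa and Cd80 had no exact match in the windows searched, which does not show that they lack these boxes. H2-Ab1, Cd74, Ciita and Cd86 had no promoter to search, and the X box letters were set after the sequences had been seen. Whether these letters bear on the likeness of levels within groups was not tested.

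The level of Ciita was related to that of each chain gene in a comparison added after the data had been seen. Over the 16 hearts, as deviations from their group means, Ciita and H2-Ab1 had a Pearson r of 0.840 (permutation within groups, two-sided, p = 0.00116, adjusted over 4 relations 0.00463) and a Spearman rho of 0.882 (permutation p = 0.00347, adjusted 0.0139). Without the hearts farthest from the median for Ciita, MI 1 of PKM2-/- and sham 2 of PKM2fl/fl, r was 0.820. For H2-Aa, H2-Eb1 and Cd74 the r was 0.822, 0.788 and 0.819 (adjusted permutation p = 0.0112 for each) and the rho 0.841, 0.782 and 0.812 (adjusted permutation p = 0.0141 for each). Each group adds only 2 or 3 hearts to these relations. They are not particular to Ciita. Against the mean of H2-Aa, H2-Ab1, H2-Eb1 and Cd74, its r of 0.828 was below those of the collagen genes Col5a1 (0.952) and Col3a1 (0.937). Whether Ciita sets the level of the chain genes was not tested. Ciita and Cd86 had an r of -0.200, given as a description.

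**Figure D5:**
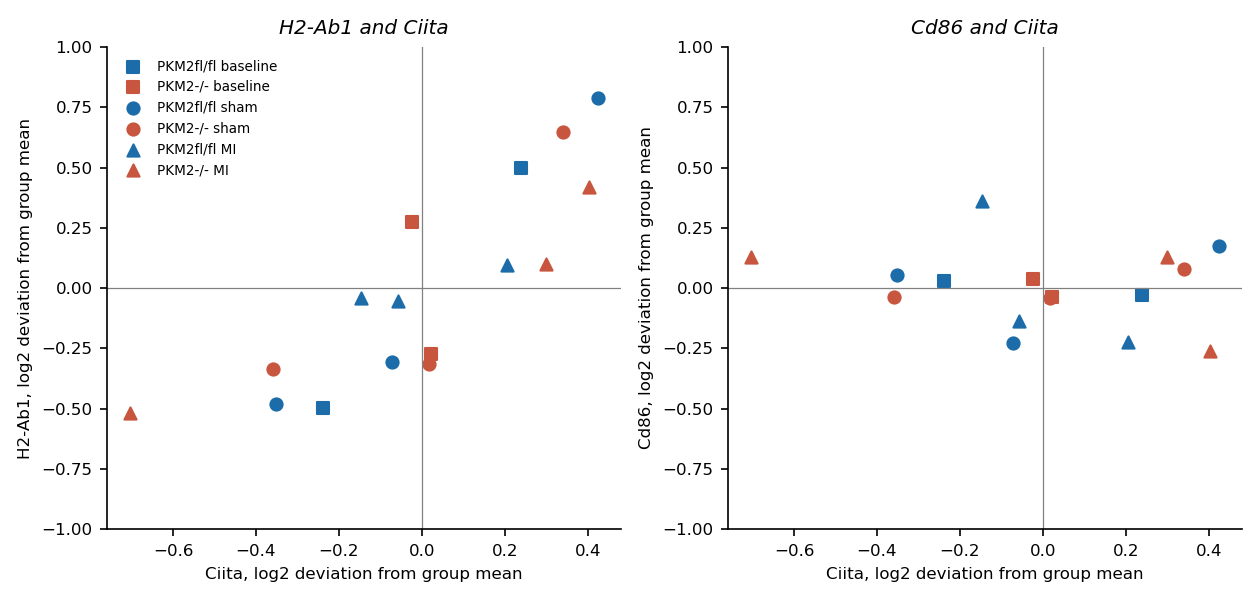
Deviation of each heart from its group mean for Ciita (x axis) and for H2-Ab1 (left, y axis) or Cd86 (right, y axis), as the log2 level with 1 added to each normalized count, in 16 left ventricles. Colours give genotype and shapes give treatment; H2-Ab1 rises with Ciita (r = 0.840) and Cd86 does not (r = -0.200).

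Of the genes outside the 9, the 5 whose within-group levels were most like those of the chain genes and Cd74 over the 16 hearts were Irf8 (r = 0.960), Mir5107 (r = 0.957), Col5a1 (r = 0.952), Col3a1 (r = 0.937) and Tifab (r = 0.928). Irf8, which encodes a factor of monocytes and dendritic cells, had 209, 344 and 231 normalized counts in the PKM2fl/fl sham hearts and 329.6, 256 and 202 in the PKM2-/- sham hearts, with the same hearts highest as for class II. Mir5107 lies inside Cd74, so its reads cannot be told apart from those of Cd74. Col3a1 and Col5a1 encode fibrillar collagens, and in the sham hearts Col3a1 had 8632, 14948 and 6485 normalized counts in PKM2fl/fl and 14593, 8519 and 7878 in PKM2-/- hearts. These likenesses carry no test.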

How the data were processed

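The RNA of 16 mouse left ventricles was sequenced, each library named in the labels as a heart of its own, in 6 groups of genotype and treatment. Replicate numbers therefore paired no hearts across groups. Per the study's methods, RNA with an integrity number of at least 8 was depleted of rRNA and sequenced in pairs. The authors used PRINSEQ for trimming, HISAT2 for alignment to the mm10 genome, featureCounts for reads per gene and DESeq2 for the comparison of groups. The strand and multi-mapping settings are not given in the sources used here, so overlapping genes cannot be told apart.

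The authors deposited a normalized signal per gene and library, the read count divided by a DESeq2 size factor. The deposited table also holds the authors' mean signal, log2 fold change and its error for the baseline genotypes, the Wald score, and p-values before and after adjustment, none of which was used. Reads were recovered by dividing each library by its smallest step, and 100% of values were whole within 0.01. Of values of 1 to 10 reads 66.4% were even, so both mates of a pair may have been counted, and reads are not independent molecules. Depth was 20623769 to 71855101 reads per library, and no sample column was left out.

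The test planned for normalized values was used. limma 3.58.1 (limma-trend, in R 4.3.3) took the signal as log2 after a pseudocount of 1 was added, over all 16 libraries in 6 groups, for 20576 genes with a mean of at least 10. Genes with an adjusted p under 0.05 (Benjamini-Hochberg) were said to pass, and those also changed 2-fold were called, after the study's criteria, in 8 comparisons. The members and gene lists were chosen with earlier results of these data known. Named genes were the 9 members, at most 4 genes of each list with the smallest p in MI against sham of PKM2fl/fl hearts, set marker genes, Pkm, and the 5 genes most like the class II chains. Alternatives were the recovered reads tested by edgeR 4.0.16, by DESeq2 1.42.0 and by limma-voom, TMM and total count scaling, a pseudocount of 0.1, no filter, the compared libraries alone, a replicate block and each library left out. The models were tested on simulated data for MI against sham in PKM2fl/fl hearts, with 200 genes changed and an adjusted p under 0.05. limma-trend recovered 56% of 2-fold and 90% of 4-fold changes, with 6 false calls. edgeR, DESeq2 and limma-voom recovered 56%, 66% and 58% of 2-fold changes, with 7, 27 and 7 false calls. A 2-fold change can therefore be missed in that setting. In the hearts far more genes passed in this comparison, 5097 higher and 5202 lower. The Benjamini-Hochberg adjustment depends on that number, so the simulated rates do not carry over to the hearts. Transcripts were compared with BLAST 2.17.0. Lengths came from GENCODE on GRCm39, and gene positions and promoters from RefSeq on GRCm38.p6, the build of the alignment.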

Additional observations from a re-analysis of the deposited data

How the results depend on the processing

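The 9 genes stayed higher after MI in both genotypes under every alternative tried, with log2 fold changes from 0.061 to 1.91 over 288 values. The number past both thresholds did not stay. On adjusted p alone the number was 5 in PKM2fl/fl and 5 in PKM2-/- hearts. That count was 0 and 9 with total count scaling, and in PKM2fl/fl hearts 3 with DESeq2 and 7 with limma-voom. With 1 heart left out it was 2 to 7 and 2 to 6. Without both sham hearts of high class II levels it was 8 in PKM2fl/fl hearts. Past both thresholds the number was 1 in PKM2fl/fl hearts with limma-voom and 8 in PKM2-/- hearts with total count scaling. With 1 heart left out at a time it ranged from 0 to 5 in PKM2fl/fl and from 1 to 3 in PKM2-/- hearts, a left-out heart leaving fewer samples. Without both sham hearts of high class II levels, a choice made after seeing the data, it was 6 and 3. The other 6 comparisons gave 0 under each alternative tried. Of 582 alternative values of single genes 7 changed direction. Under total count scaling these were H2-Ab1 between genotypes after MI, at 0.10, and the interaction of Ciita, at 0.25. Between genotypes after sham surgery they were H2-Aa, H2-Ab1, H2-Eb1 and Cd74 without sham 2 of PKM2fl/fl, at 0.042, 0.11, 0.096 and 0.21, and Cd74 without sham 3 of PKM2-/-, at 0.015. With 1 heart left out those differences ranged from -0.76 to 0.042 for H2-Aa, -0.61 to 0.11 for H2-Ab1, -0.74 to 0.096 for H2-Eb1 and -0.50 to 0.21 for Cd74. The cause was not tested.

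Hearts with the same replicate number are different animals, and a replicate block gave 0 called genes in PKM2fl/fl and 1 in PKM2-/- hearts, and 0 in the other 6 comparisons, so the block changed no call past both thresholds. Under it 4 of 9 passed on adjusted p in PKM2fl/fl hearts, H2-Ab1 being lost at 0.0521.

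Ratios to Ptprc stayed lower after MI with each heart left out. Those to Csf1r changed sign for 3 of 4 results: without 1 heart the log2 difference of MI and sham ranged from -0.35 to 0.0915 for H2-Ab1 in PKM2fl/fl, from -0.32 to 0.156 for H2-Ab1 in PKM2-/- and from -0.33 to 0.143 for Cd74 in PKM2fl/fl hearts. H2-DMb1 rests on 17 to 205 reads per heart, the fewest of the 9 genes.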
